A study of Mus musculus with 7 samples.

Results

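Stomatin, the stomatin-like proteins, the flotillins, the prohibitins and the erlins share the SPFH domain, named for stomatin, prohibitin, flotillin and the bacterial proteins HflK and HflC. The family was taken by gene symbol as 9 genes, Stom, Stoml1, Stoml2, Flot1, Flot2, Phb, Phb2, Erlin1 and Erlin2, out of 56953 genes in the files. All 9 were found, and all 9 passed the filter on low counts that left 13990 genes. SPFH proteins anchor on one face of a membrane, assemble into large ring-shaped or cage-shaped scaffolds, and gather particular lipids and proteins around them. Stomatin and flotillins do this at the plasma membrane and on endosomes, prohibitins and Stoml2 at the mitochondrial inner membrane, and erlins in the endoplasmic reticulum. Stomatin is best known as a major membrane protein of red blood cells, where it binds transporters and ion channels.

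RNA was measured in tumour cells of B16, a mouse melanoma line, sorted as live cells without the leukocyte marker CD45 and the endothelial marker CD31, at 5 days after treatment. The tumours of 3 mice received radiotherapy at 8 Gy and AAV-iIL12, an adeno-associated virus vector named for interleukin 12, a cytokine that raises interferon gamma production by lymphocytes. Those of 4 mice received the same radiotherapy and AAV-iLuc, the control vector. Every library is thus irradiated and vector-treated, and no untreated tumour is compared. The titles of the AAV-iIL12 samples add WT, which the labels do not explain. Genes of the family were taken by symbol, but the family itself was selected on the fold changes measured in these libraries, with Stom set against its relatives. The members' differences between groups are therefore described and not tested, and a call for a member means only that its row of the fit across all genes lay under an adjusted p of 0.05.

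Total counts lay between 16356653 and 19080587 per library. Melanoma marker genes summed to between 32695 and 33870 CPM (counts scaled by library size and the trimmed mean of M-values, TMM) in AAV-iIL12 and between 28431 and 31475 CPM in AAV-iLuc. Of these 8 genes 3 rose, where 23.5% of all genes tested did, and 5 did not pass. The leukocyte list summed to between 8.02 and 12.0 CPM in AAV-iIL12, against 16.4, 2.52, 1.97 and 4.43 CPM in AAV-iLuc replicates 1 to 4. Outside AAV-iLuc replicate 1, every AAV-iLuc sum lay below every AAV-iIL12 sum. In edgeR 0 of the 6 tested leukocyte genes were called, but their group means were at most 3.17 CPM. Among AAV-iLuc libraries the SD exceeded the mean for Lyz2 (2.04 ± 2.99 CPM) and Ptprc (0.77 ± 1.13 CPM). The absence of calls therefore does not show that leukocyte content was equal. Gbp2, an interferon-induced GTPase, was higher in AAV-iLuc replicates 1 and 2 than in AAV-iLuc replicates 3 and 4, and highest in replicate 1. Gbp2 had 2054, 1634 and 1682 CPM in AAV-iIL12, against 101, 24.8, 6.08 and 3.20 CPM in AAV-iLuc replicates 1 to 4. Values without AAV-iLuc replicate 1, or without AAV-iLuc replicate 2, stand beside those of Stom. The erythroid list, which bears on a gene as abundant in red cells as Stom, summed to between 0.330 and 0.609 CPM in AAV-iIL12 and to between 0.361 and 1.92 CPM in AAV-iLuc, with Hbb-bt at 0 in every library. Fibroblast and mural cell genes summed to between 57.6 and 156 CPM in AAV-iIL12 and to between 83.3 and 289 CPM in AAV-iLuc. Endothelial sums ran from 15.2 to 26.7 CPM under AAV-iIL12 and from 19.4 to 24.9 CPM under AAV-iLuc. Vwf alone made up nearly all of the endothelial sum, its group means being 20.5 CPM under AAV-iIL12 against 21.9 CPM under AAV-iLuc. Cdh5, Emcn and Cldn5 were at 0, and Pecam1, Kdr and Tek had at most 12 counts in either group. Keratinocyte genes reached at most 0.163 CPM and adipocyte and muscle genes at most 1.52 CPM in any library. What part these sums play in the members' differences was not tested.

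Across the family, the members of the plasma membrane and endosomes were higher in AAV-iIL12 tumours, and those of mitochondria were lower or close to the control level. Those of the endoplasmic reticulum differed in direction, Erlin1 at -0.21 and Erlin2 at 0.14 on the log2 scale. Of the 9 members 4 were called higher, where 23.5% of all genes tested were, and 2 were called lower, where 23.7% were. The called members were Stom, Stoml1, Flot1 and Flot2 on the higher side and Stoml2 and Phb2 on the lower side, while Phb, Erlin1 and Erlin2 did not pass. The groups did not overlap for 7 members, against 52.5% of all genes tested. Of these, 4 lay above, beside 25.9% of all genes, and 3 below, beside 26.7%. The median log2 fold change was 0.14 over the 9 members and 0.00 over the 8 relatives of Stom, beside -0.01 over all genes tested. The contrast chose the family, and 47.2% of all genes were called in it, so nothing is read from these counts or from the grouping by membrane. With scaling by library size only, 36.0% of all calls were higher, and with upper quartile scaling 38.5%, against 49.8% with TMM. The members called lower then numbered 4 under either.

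**Figure D1:**
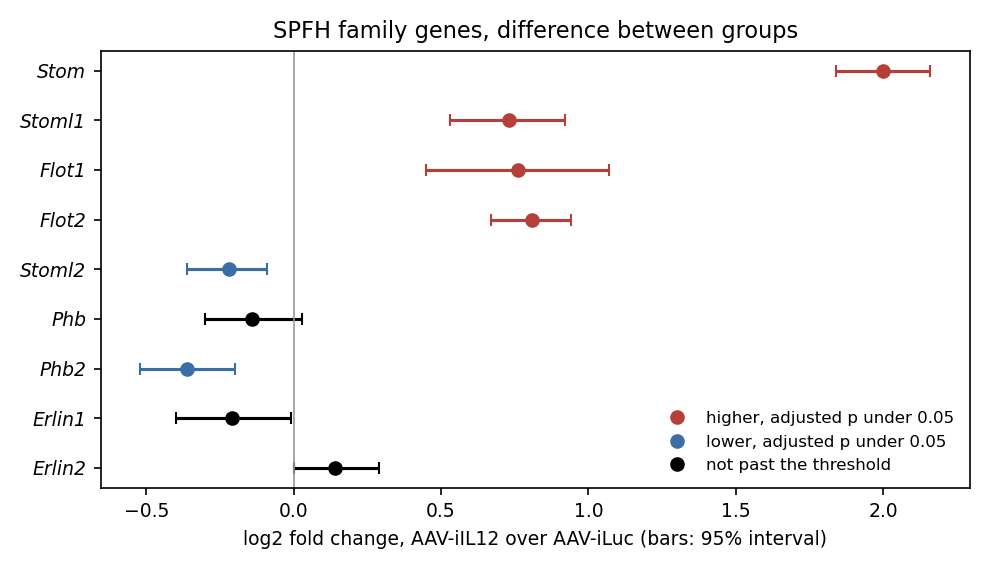
Log2 fold change of each SPFH family gene, AAV-iIL12 over AAV-iLuc (horizontal axis), with its unadjusted 95% interval from edgeR, 3 against 4 libraries. Stom stands at 2.0, Stoml1, Flot1 and Flot2 lie between 0.73 and 0.81, and the remaining members lie between -0.36 and 0.14.

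Stom (ENSMUSG00000026880, chromosome 2, 35203998 to 35226988 on the minus strand, GRCm39 as for all members and neighbours) encodes stomatin itself. It had 162, 137 and 144 CPM in AAV-iIL12 replicates 1 to 3, against 39.2, 38.8, 33.8 and 35.8 CPM in AAV-iLuc replicates 1 to 4. Every AAV-iIL12 library thus stood far above every AAV-iLuc library. Within AAV-iLuc, replicates 1 and 2, which had the most Gbp2, were also the highest in Stom. Without AAV-iLuc replicate 1 the log2 fold change of Stom was 2.03, and those of the relatives ran from -0.38 to 0.83. Without AAV-iLuc replicate 2 that of Stom was 2.02. No fit left out both. Stom averaged 147 ± 12.8 CPM in AAV-iIL12 (SD, n = 3) and 36.9 ± 2.56 CPM in AAV-iLuc (SD, n = 4), a log2 fold change of 2.0 ± 0.07 (SE), or 4.00-fold. With any single library left out it stayed between 1.93 and 2.05. Of the 13990 genes tested, 338 had a larger log2 fold change, which is 2.42%. In bulk RNA, more cells with the transcript and more transcript per cell cannot be told apart, here or for the other members.

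The region just before the Stom start site is shown because it is where matches to interferon-response motifs would be looked for. That of Phb, a member without a call under TMM scaling and the only searched member with such a match, is shown beside it. Both are RefSeq sequences on GRCm38.p6, the 250 bases before the start, 5′ to 3′ on the gene's strand, at chr2:35337010-35337259 on the minus strand for Stom and chr11:95666707-95666956 on the plus strand for Phb. Capitals mark matches to the searched motifs.
Stom: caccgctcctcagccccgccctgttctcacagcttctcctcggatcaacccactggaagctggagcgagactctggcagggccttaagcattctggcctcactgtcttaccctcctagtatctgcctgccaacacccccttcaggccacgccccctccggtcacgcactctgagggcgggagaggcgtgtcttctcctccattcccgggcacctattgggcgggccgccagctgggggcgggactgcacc
Phb: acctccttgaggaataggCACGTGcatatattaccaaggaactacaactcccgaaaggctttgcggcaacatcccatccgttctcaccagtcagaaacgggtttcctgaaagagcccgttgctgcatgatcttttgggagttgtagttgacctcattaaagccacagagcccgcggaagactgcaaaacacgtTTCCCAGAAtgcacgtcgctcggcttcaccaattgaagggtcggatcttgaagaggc

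The windows searched ran to 50 bases after the start, on both strands, for the gamma interferon activation site TTCNNNGAA, the core of the interferon-stimulated response element (GAAA, any 2 bases, GAAA), and the E-box CACGTG. Of 32851 windows, 8.30% held the first, 3.44% the second and 7.15% the third. The Stom window held none of them, and neither did those of Stoml1, Stoml2, Flot2 and Phb2. Flot1 and Erlin2 were not searched. The Phb window held a gamma interferon activation site starting 57 bases and an E-box starting 232 bases before the start site. Of the 3 Erlin1 windows, 1 held an E-box starting 37 bases before its start. The Stom sequence was 65.2% G and C with 13 CpG dinucleotides, where the median window had 52.4% and 6. A match is a description of letters, and its absence from these windows says nothing of binding elsewhere.

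Stoml1 (ENSMUSG00000032333, chromosome 9, 58160447 to 58169803), a stomatin-like protein of late endosomes with an added sterol-carrier domain, was the least abundant member per length in AAV-iLuc. It had 19.1, 17.2 and 16.9 CPM in AAV-iIL12, against 11.2, 10.9, 10.8 and 9.95 CPM in AAV-iLuc. The groups did not overlap, and the log2 fold change was 0.73 ± 0.09 (SE), or 1.66-fold.

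The flotillins Flot1 and Flot2 form hetero-oligomers that mark flat membrane microdomains and take part in endocytosis and cell adhesion. Flot1 (ENSMUSG00000059714, chromosome 17, 36134122 to 36143683) had 55.3, 36.7 and 40.2 CPM in AAV-iIL12, against 25.6, 28.6, 27.4 and 22.3 CPM in AAV-iLuc. AAV-iIL12 replicate 1 was the highest, and Flot1 varied most of all members in that group, with a coefficient of variation of 22.4% where the median of all genes was 8.03%. Its log2 fold change was 0.76 ± 0.14 (SE), and it ranged from 0.57 to 0.88 with single libraries left out. Flot2 (ENSMUSG00000061981, chromosome 11, 77928757 to 77951260) had 163, 140 and 144 CPM in AAV-iIL12, against 88.9, 86.1, 85.1 and 81.0 CPM in AAV-iLuc, with no overlap and a log2 fold change of 0.81 ± 0.06 (SE). Per length, Flot2 stood at 3.64 ± 0.473 times Flot1 in AAV-iIL12 and 3.49 ± 0.310 times in AAV-iLuc (SD), with overlapping groups, so the balance of the flotillin pair differed by less than the spread between libraries.

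Levels between genes are compared per length, as CPM per kilobase of exon (RPKM). In AAV-iIL12 the order was Phb2 at 79.1 ± 4.98, Flot2 at 54.4 ± 4.51, Stom at 52.2 ± 4.53, Erlin2 at 28.2 ± 0.916, Phb at 18.7 ± 1.20, Flot1 at 15.2 ± 3.42, Stoml2 at 12.4 ± 0.328, Stoml1 at 5.74 ± 0.388 and Erlin1 at 4.13 ± 0.395 RPKM (SD, n = 3). Neighbours in that order overlapped between Flot2 and Stom, between Phb and Flot1, and between Flot1 and Stoml2. In AAV-iLuc the order was Phb2 at 101 ± 7.12, Flot2 at 31.1 ± 1.20, Erlin2 at 25.6 ± 1.84, Phb at 20.6 ± 1.63, Stoml2 at 14.5 ± 0.599, Stom at 13 ± 0.904, Flot1 at 8.98 ± 0.947, Erlin1 at 4.77 ± 0.306 and Stoml1 at 3.46 ± 0.175 RPKM (SD, n = 4), and only Stoml2 and Stom overlapped as neighbours. Stom thus ranked 3 of 9 in AAV-iIL12 and 6 of 9 in AAV-iLuc. Among all genes tested, 861 had a higher mean RPKM than Stom in AAV-iIL12 and 3758 in AAV-iLuc. Of the family's summed RPKM, 270 ± 7.94 in AAV-iIL12 and 223 ± 5.99 in AAV-iLuc, Stom made up 19.3% ± 1.16 in AAV-iIL12 and 5.85% ± 0.556 in AAV-iLuc, and Phb2 made up 29.3% ± 2.40 in AAV-iIL12 and 45.3% ± 2.19 in AAV-iLuc.

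**Figure D2:**
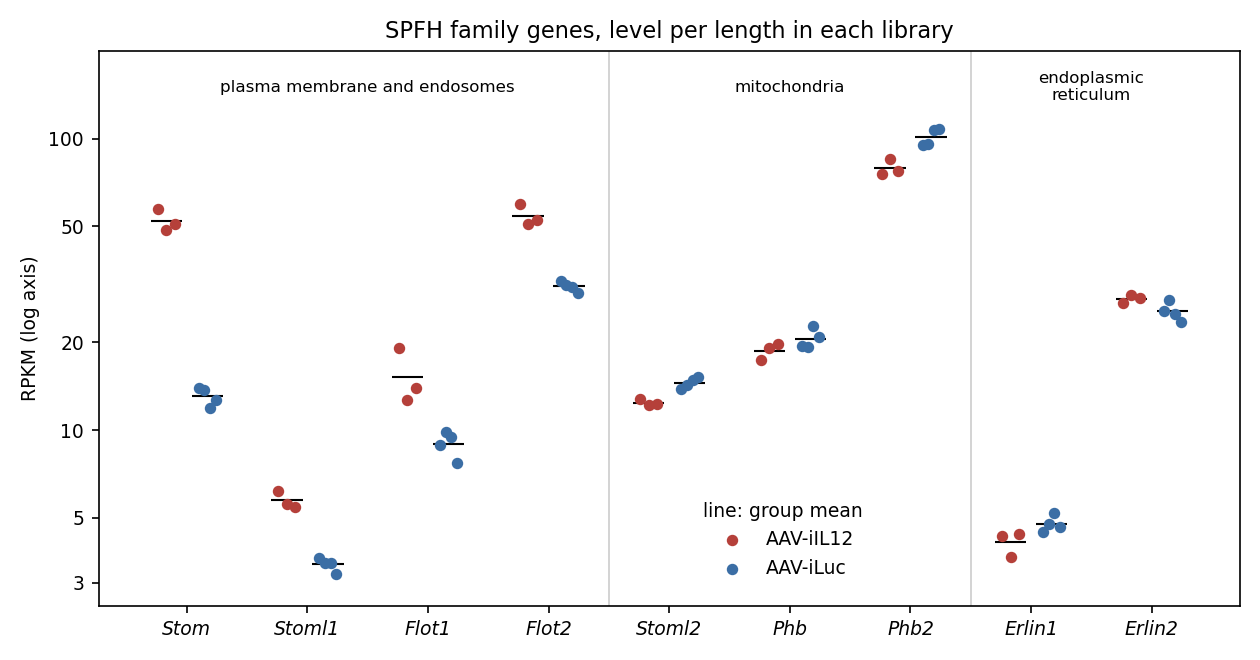
Level per length (RPKM, log axis) of the 9 SPFH family genes in each library, AAV-iIL12 in red and AAV-iLuc in blue, with a line at each group mean, ordered by the membrane where the protein is known to act. The 3 AAV-iIL12 libraries of Stom lie between 48.4 and 57.2 RPKM and the 4 AAV-iLuc libraries between 11.9 and 13.9 RPKM.

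Set against each relative within the same library, Stom was higher in AAV-iIL12 than in AAV-iLuc. Its RPKM was 0.961, 0.947 and 0.969 times that of Flot2 in the AAV-iIL12 libraries, against 0.427, 0.436, 0.385 and 0.428 times in the AAV-iLuc libraries. In AAV-iIL12 the ratio of Stom to Flot2 had an SD of 0.0114 around 0.959, the smallest SD of these ratios. It rests on 3 libraries, and nothing is read from it. Against Stoml2, its mitochondrial relative, Stom stood at 4.19 ± 0.255 times in AAV-iIL12 and 0.900 ± 0.0953 times in AAV-iLuc. Against Phb2 it stood at 0.663 ± 0.0936 times in AAV-iIL12 and 0.130 ± 0.0177 times in AAV-iLuc. The log2 ratio of Stom to a relative differed between groups by 1.20 for Flot2, 1.25 for Flot1, 1.27 for Stoml1, 1.85 for Erlin2, 2.14 for Phb, 2.21 for Erlin1, 2.22 for Stoml2 and 2.36 for Phb2. None of the 8 ratios overlapped between groups. With Stom 4.00-fold higher and no relative above 1.75-fold, that separation restates the contrast that selected the family, and nothing is read from it. These ratios do not depend on the scaling of the libraries. With single libraries left out, the difference ranged from 1.19 to 1.36 for Flot1, from 2.01 to 2.20 for Phb and from 2.26 to 2.46 for Phb2, and for the other relatives it moved no more than for Flot1.

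**Figure D3:**
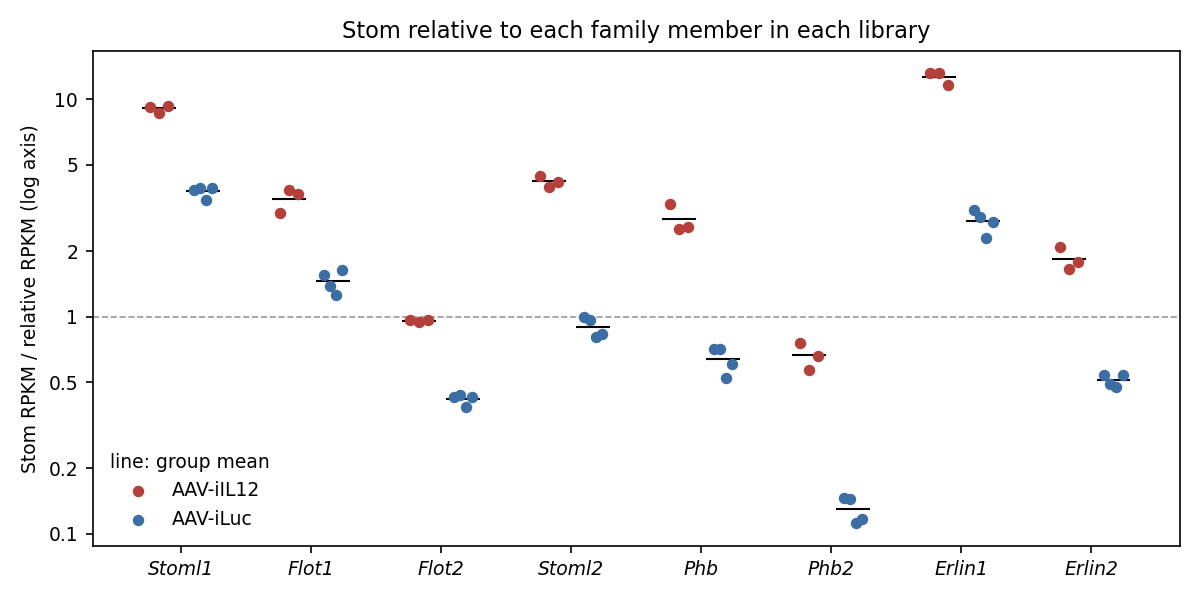
Ratio of Stom RPKM to the RPKM of each relative (log axis) in each library, AAV-iIL12 in red and AAV-iLuc in blue, with a line at each group mean and a dashed line where both genes are equal. Stom lies at 0.959 times Flot2 in AAV-iIL12 and 0.419 times in AAV-iLuc. The groups are separate for all 8 relatives, which restates the larger rise of Stom in the contrast that selected the family.

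Phb and Phb2 encode the prohibitins, which alternate in a ring complex of the mitochondrial inner membrane that holds proteases and cristae in place. Phb2 (ENSMUSG00000004264, chromosome 6, 124689299 to 124693913) had 280, 315 and 287 CPM in AAV-iIL12, against 353, 355, 398 and 402 CPM in AAV-iLuc. The groups did not overlap, and the log2 fold change was -0.36 ± 0.07 (SE), or 0.78 times the AAV-iLuc level. Phb (ENSMUSG00000038845, chromosome 11, 95557783 to 95571599) had 48.8, 53.5 and 55.3 CPM in AAV-iIL12, against 54.7, 54.1, 64.0 and 58.4 CPM in AAV-iLuc. The groups overlapped, and its log2 fold change of -0.14 had a 95% interval of -0.30 to 0.03. Phb2 stood at 4.34, 4.44 and 3.91 times Phb per length in AAV-iIL12 and at 4.87, 4.95, 4.69 and 5.19 times in AAV-iLuc, so the ratio within the pair was lower in each AAV-iIL12 library.

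Stoml2 (ENSMUSG00000028455, chromosome 4, 43027690 to 43031710), which binds cardiolipin and prohibitins and scaffolds the proteases Yme1l1 and Parl, had 38.7, 37.0 and 37.1 CPM in AAV-iIL12. In AAV-iLuc it had 41.8, 43.2, 44.8 and 45.9 CPM. The gap between the groups was narrow but without overlap, and the log2 fold change was -0.22 ± 0.06 (SE), or 0.856 times the AAV-iLuc level.

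The erlins form a complex of the endoplasmic reticulum that recruits the ubiquitin ligase Rnf170 to activated inositol trisphosphate receptors and restrains sterol synthesis. Erlin1 (ENSMUSG00000025198, chromosome 19, 44023383 to 44058224) had 21.5, 18.2 and 21.8 CPM in AAV-iIL12, against 22.2, 23.7, 25.7 and 23.1 CPM in AAV-iLuc. The groups just missed each other, and the log2 fold change of -0.21 had a 95% interval of -0.40 to -0.01 before adjustment, with no call. Erlin2 (ENSMUSG00000031483, chromosome 8, 27513289 to 27530356) had 159, 170 and 165 CPM in AAV-iIL12, against 150, 163, 146 and 137 CPM in AAV-iLuc. The groups overlapped, and the log2 fold change of 0.14 had a 95% interval of 0.00 to 0.29, with a call without AAV-iLuc replicate 2. Erlin2 stood at 6.29, 7.91 and 6.47 times Erlin1 per length in AAV-iIL12 and at 5.77, 5.85, 4.84 and 5.04 times in AAV-iLuc, without overlap.

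In log2 CPM centred on each gene's mean over the 7 libraries, some relatives were closer to each other than to Stom. The measure is not scaled, so it largely follows the log2 fold change, on which the family was selected. The root mean square difference in centred log2 CPM was 0.0462 between Stoml1 and Flot2, the smallest of the 36 pairs, and 0.0863 between Stoml2 and Erlin1. It was at least 0.593 between Stom and any relative. The genes most like Stom by the same measure were Hdac11, a histone deacetylase (0.0701), Cp, the copper protein ceruloplasmin (0.0833), C2, a complement protease (0.0850), Ubl7 (0.0931), Unc93b1, which carries Toll-like receptors to endosomes (0.0996), Ggt5, a gamma-glutamyltransferase (0.104), Rnf135, a ubiquitin ligase of RIG-I signalling (0.112), and Slc15a2, a peptide transporter (0.118). Their log2 fold changes lay between 1.86 and 2.61. Predicted genes without a standard symbol were left out of this search. Ggt5, at 2.61, rested on 59 counts in AAV-iIL12 and 13 in AAV-iLuc. At so few counts the prior count of 2 reduces the difference in log2 CPM, so its nearness to Stom is uncertain. Stoml3, a stomatin-like gene outside the family list, had 12 counts in AAV-iIL12 and 13 in AAV-iLuc and was not tested. Mvp, the major vault protein, whose shoulder has an SPFH-like fold, had 128 ± 12.9 CPM in AAV-iIL12, against 33.7 ± 5.91 CPM in AAV-iLuc, and rose by 1.93 on the log2 scale (SE 0.12, edgeR adjusted p = 3.01e-06).

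Partners of the SPFH proteins were listed with earlier results of these data known, and their calls come from the fit across all genes, in which 23.5% of genes rose and 23.7% fell. The counts that follow stand beside those shares and are descriptions of the lists. Among 15 partners of the prohibitins and Stoml2 in the mitochondrial inner membrane, 9 fell and 6 did not pass, with a median log2 fold change of -0.19. None rose in edgeR, and none did at an unadjusted p under 0.05 or in DESeq2 or limma-voom. Immt, the core of the cristae junction complex, fell to 333 ± 17.6 CPM in AAV-iIL12, against 409 ± 10.6 CPM in AAV-iLuc (edgeR adjusted p = 0.00214). Afg3l1 and Afg3l2, subunits of the protease that prohibitins hold, fell by 0.26 and 0.25 on the log2 scale, and C1qbp, a matrix protein, by 0.26. Lonp1, a matrix protease, had 388 ± 30.3 CPM in AAV-iIL12, against 403 ± 19 CPM in AAV-iLuc, and did not pass.

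Among 7 genes of cardiolipin, the mitochondrial lipid that Stoml2 binds, 2 rose, 2 fell and 3 did not pass (median -0.04). Taz, the cardiolipin acyltransferase tafazzin, rose to 49.9 ± 3.45 CPM in AAV-iIL12, against 24.7 ± 3.85 CPM in AAV-iLuc, a log2 fold change of 1.01 ± 0.11 (SE, edgeR adjusted p = 6.94e-05). Pgs1, which makes the phosphatidylglycerol phosphate precursor, rose by 0.32. Tamm41, which supplies the activated lipid before Pgs1, fell to 13 ± 1.49 CPM in AAV-iIL12, against 22.2 ± 2.77 CPM in AAV-iLuc (edgeR adjusted p = 5.32e-04). Prelid1, which carries phosphatidic acid to the inner membrane, fell by 0.38. With single libraries left out the list's median ranged from -0.08 (without AAV-iLuc replicate 1) to -0.01 (without AAV-iIL12 replicate 1).

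Among 17 erlin partners, 5 rose, 4 fell and 8 did not pass (median 0.03). Erlins act on inositol trisphosphate receptors. Of their genes, Itpr1 and Itpr2 rose by 0.36 and 0.82, while Itpr3 fell by 0.24 (edgeR adjusted p = 0.0421). Itpr3 is named here after its value was seen. Itpr2 rose to 72.2 ± 7.74 CPM in AAV-iIL12, against 41.0 ± 1.41 CPM in AAV-iLuc (edgeR adjusted p = 1.73e-05). Rnf139, a sterol-sensitive ubiquitin ligase, rose by 0.75. Srebf2, the transcription factor of cholesterol synthesis, fell to 251 ± 32.8 CPM in AAV-iIL12, against 400 ± 32.8 CPM in AAV-iLuc (edgeR adjusted p = 3.38e-04). Rnf170, the ligase that erlins recruit, had 13.3 ± 0.737 CPM in AAV-iIL12, against 12.3 ± 0.952 CPM in AAV-iLuc, and did not pass, and it is named here after its value was seen. Without AAV-iIL12 replicate 1 the list's falls numbered 2. Its median was -0.06 with library size only and -0.04 with upper quartile scaling.

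Among 15 tested flotillin partners, caveolar genes and raft adaptors, 3 rose, 4 fell and 8 did not pass (median -0.18). Cav2, a caveolin, fell to 75.4 ± 1.89 CPM in AAV-iIL12, against 136 ± 5.08 CPM in AAV-iLuc, a log2 fold change of -0.85 ± 0.05 (SE, edgeR adjusted p = 2.05e-06), opposite in direction to both flotillins. Cavin2 and Pacsin2, which shape caveolae, fell by 0.49 and 0.33. Of their tested relatives in the list, Ehd2 fell by 0.62, Pacsin3 rose by 0.31, and Cav1 and Cavin1 did not pass. These relatives are named here after their values were seen. Sorbs2 rose by 0.81. Sorbs3, the cytoskeletal adaptor vinexin, rose by 0.20 (edgeR adjusted p = 0.0273), with 0.00616 to 0.187 over 15 alternatives. Its call was lost when AAV-iIL12 replicate 2 or 3 was left out, and likewise for AAV-iLuc replicate 3 or 4, and with library size only, upper quartile scaling or the replicate block. The rises of the list numbered 1 without AAV-iIL12 replicate 2 or without AAV-iLuc replicate 3, and its median was -0.09 without AAV-iIL12 replicate 1 and -0.10 without AAV-iLuc replicate 1.

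Of 9 channels and transporters known to bind stomatin-type proteins, 5 were tested, of which 1 fell and 4 did not pass (median -0.37), and 0 rose in edgeR, at an unadjusted p under 0.05, in DESeq2 or in limma-voom. The median of so short a list rested on single libraries, at -0.07 without AAV-iLuc replicate 4. With AAV-iIL12 replicate 1, 2 or 3 left out it was -0.20, -0.50 or -0.13, and was -0.11 with the replicate block. Slc2a1, the glucose transporter GLUT1 that stomatin binds in red cells, had 335 ± 73.4 CPM in AAV-iIL12, against 433 ± 52.6 CPM in AAV-iLuc, and its edgeR adjusted p was 0.0567, with 0.00304 to 0.157 over 15 alternatives. It passed in DESeq2, limma-voom, library size only, upper quartile scaling, the replicate block, without the low-count filter and without AAV-iIL12 replicate 2. Asic1, an acid-sensing channel, fell by 0.95 on 35 counts in AAV-iIL12 and 94 in AAV-iLuc (edgeR adjusted p = 0.0253), with 0.013 to 0.079 over 15 alternatives. That call was lost when any AAV-iIL12 library or AAV-iLuc replicate 3 was left out, in DESeq2, without the low-count filter and with the replicate block. Slc4a1, the anion exchanger of red cells, had 0 counts in AAV-iIL12 and 2 in AAV-iLuc.

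**Figure D4:**
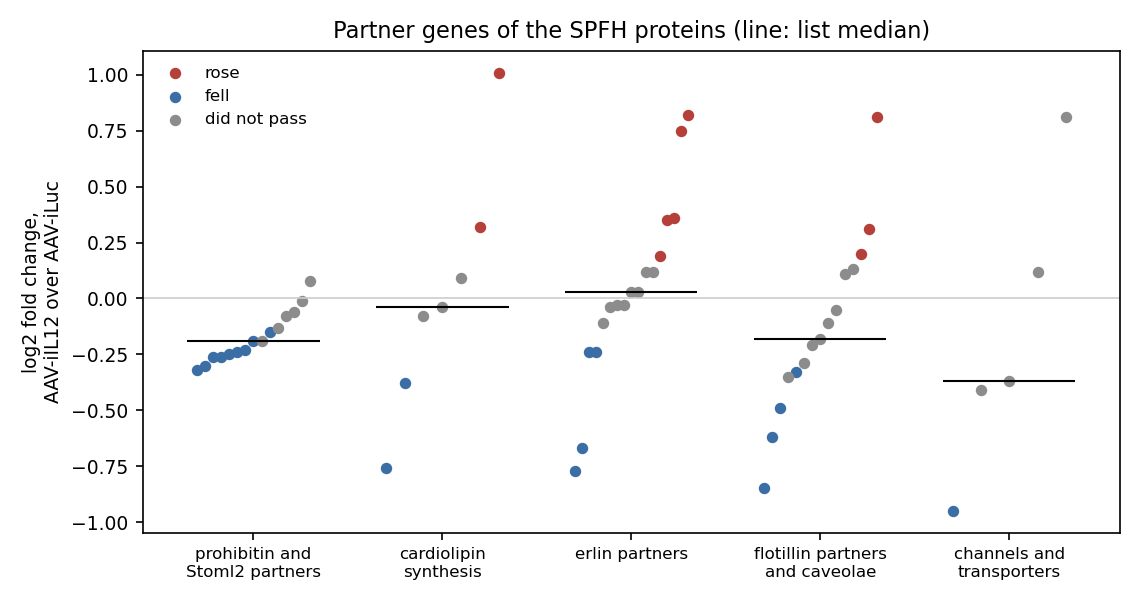
Log2 fold change, AAV-iIL12 over AAV-iLuc (vertical axis), of each tested partner gene in 5 lists, colored by whether it rose, fell or did not pass in edgeR, with a line at each list's median. The medians run from -0.37 for the channels, a value that was -0.07 without AAV-iLuc replicate 4, to 0.03 for the erlin partners. The prohibitin and Stoml2 partners hold 9 falls, 7 to 9 with single libraries left out, and 0 rises.

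Neighbouring genes gave the position of each member among the changes around it. Of the 18 nearest tested protein-coding genes on either side of the members, 9 rose, 3 fell and 6 did not pass, beside the 23.5% and 23.7% of all genes tested. Stom lay 6094 bases from Gsn, the actin-severing protein gelsolin, tail to tail, which rose by 0.20 to 178 ± 5.79 CPM in AAV-iIL12, against 155 ± 4.14 CPM in AAV-iLuc (edgeR adjusted p = 0.00823). On its other side Ggta1 lay 63203 bases away and did not pass. Stoml1 lay head to head with Pml, the organizer of nuclear bodies, 3378 bases away, and Pml rose to 186 ± 11.1 CPM in AAV-iIL12, against 56.9 ± 5.99 CPM in AAV-iLuc (log2 fold change 1.71 ± 0.08 SE, edgeR adjusted p = 1.04e-06). Loxl1, on the other side of Stoml1, did not pass.

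Phb2 lay head to head with Emg1, a ribosome assembly methyltransferase, 158 bases away, and Emg1 fell by 0.44 (edgeR adjusted p = 9.88e-05) beside the -0.36 of Phb2. On its other side Ptpn6, the phosphatase SHP-1, rose by 1.48 (edgeR adjusted p = 5.31e-06). Phb2 was the member whose exons other annotated genes overlap, 155 bases with a snoRNA gene on its strand and 141 bases with an antisense gene, 4.17% and 3.79% of its exonic length. Flot1 lay 307 bases from Ier3, which did not pass, and 1130 bases from Tubb5, a beta tubulin, which fell by 0.43. Flot2 lay 65 bases from Dhrs13, which fell by 0.49 against the 0.81 rise of Flot2, and Eral1 on its other side did not pass. Of the remaining nearest tested genes, Fam214b near Stoml2, Spop and Zfp652 near Phb, Chuk near Erlin1, and Zfp703 and Plpbp near Erlin2 rose by between 0.17 and 0.32. Pigo near Stoml2 and Dnmbp near Erlin1 did not pass. Their distances ran from 704 bases for Fam214b to 173551 bases for Spop, with Dnmbp at 94753 and Zfp703 at 41800 bases. Genes that were not tested may lie between.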

How the data were processed

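Raw counts of fragments per gene were deposited. The authors ran featureCounts 1.6.0 on exons, grouped by gene, reverse-stranded and paired-end, with the GENCODE vM32 annotation, per the file headers. No multi-mapping option appears there, and genes with near-identical copies may be undercounted. Per the submitters' processing notes, STAR 2.7.9a and the build GRCm39 were used. Symbols came from GENCODE vM21 by identifier, for 52029 of 56953 genes holding 99.44% of counts.

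The comparison used the quasi-likelihood F test of edgeR 4.0.16 (R 4.3.3), with TMM scaling, the filterByExpr filter and Benjamini-Hochberg adjustment over 13990 genes at 0.05. CPM are TMM-scaled. RPKM divides CPM by the exonic length in the deposited files, and log2 profiles used a prior count of 2. SEs were derived from the F statistic. The design text counts libraries as mice. Within groups, counts of each pair of libraries differed by more than sampling noise (chi-square per degree of freedom at least 3.44).

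All members were named. From each partner list the 4 called genes with the smallest p and the most abundant gene were named, then the 8 genes most like Stom and both nearest neighbours of each member. Members and lists were chosen with earlier results of these data known. Alternatives were other scalings and filters, DESeq2 1.42.0, limma-voom (limma 3.58.1), a replicate block, and each library left out. Protein sequences were planned but not used here. Some genes of the lists are not reported here by name.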

Additional observations from a re-analysis of the deposited data

Results flagged for a closer look

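Of 17 checks of the 4 AAV-iLuc libraries, on the CPM of each member and on the log2 ratio of Stom to each relative, 1 found a library apart from the rest. The log2 ratio of Stom to Flot2 in CPM was -1.33 in AAV-iLuc replicate 3, against -1.18, -1.15 and -1.18 in AAV-iLuc replicates 1, 2 and 4. Chance gives such a gap in about 5% of groups.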

How the results depend on the processing

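Of the 9 members' log2 fold changes, 0 turned sign under the alternatives run. The members called lower were 2 in edgeR with TMM, 4 with library size only, 4 with upper quartile scaling and 1 with the replicate block. Phb and Erlin1 were added by both scalings, which set the median of all genes at -0.10 and -0.08, and the block ended the call of Stoml2 (edgeR adjusted p = 0.0613). With library size only, 3 erlin partners and 1 flotillin partner rose, and 2 channels fell. With upper quartile scaling, 1 flotillin partner rose and 2 channels fell, and in limma-voom 2 channels fell. With single libraries left out, the erlin partners that fell numbered 2 to 4, the flotillin partners that rose 1 to 3 and the channels that fell 0 to 1. The log2 fold change of Lonp1 was 0.01 without AAV-iIL12 replicate 1. The cause was not tested. The same numbers in both groups mark no stated pairing, and deviations of same-numbered libraries correlated at 0.0876, 0.0337 and -0.0485 (replicates 1, 2 and 3). With that block 2832 genes rose and 2828 fell, against 3292 and 3316. The order of the 9 members per length was the same in TPM. Rare transcripts such as Asic1, Stoml3 and Ggt5 are limited by their low counts.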
